A study of Homo sapiens with 8 samples.

Results

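AX-0085 given alone was compared with no treatment in A549, a human lung adenocarcinoma line of alveolar epithelial origin. The comparison used the 2 libraries of AX-0085-treated cells and the 2 libraries of untreated cells among the 8 libraries of the series, and it was followed in all 15066 genes that passed an expression filter out of 60664 genes in the count table. The treated cells received AX-0085, a kinase inhibitor known here by its code name, to 0.5 µM for 24 h without IFN-γ, and the untreated cells received neither agent. The remaining groups were cells given 20 ng of IFN-γ (the labels state no volume) and cells given the same IFN-γ with AX-0085 added 24 h later. They served for contrast and also entered the expression filter, the scaling and the shared estimate of the spread. With only the 2 groups compared, 14526 genes passed the filter. A549 cells have lost the CDKN2A locus, so all 4 groups share this lesion. The vehicle of the untreated cells is not given in the sources used here. The labels describe duplicates without saying that they came from separate cultures, so p-values measure only the spread between these libraries, which may be technical.

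Kinase cascades that run from growth-factor receptors to ERK hold cells in the cell cycle by switching on immediate-early transcription factors, cyclin D genes and, through E2F, the genes of DNA replication. Genes of mitosis come on later in the cycle, and many of them are repressed in resting cells by the DREAM complex, which binds promoters through the cell-cycle homology region (CHR) and works together with CCAAT boxes. In lung cancer lines the same cascades also act on YAP-TEAD and NF-kB target genes, which include matrix-associated proteins and chemokines.

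Gene-assigned reads numbered 29115901 and 24600518 in untreated cells and 24658454 and 25919161 with AX-0085. Counts were scaled to CPM (counts per 1e+06 assigned reads) with trimmed-mean (TMM) factors and tested with edgeR's quasi-likelihood test, from which every adjusted p below comes after Benjamini-Hochberg adjustment over all tested genes. A gene was called when its adjusted p was under 0.05 and its log2 fold change was over 1 in size. Duplicates differed beyond counting noise, as the chi-square statistic over its degrees of freedom was 16.2 for the untreated pair and 8.55 for the AX-0085 pair. With 2 libraries against 2, an exact permutation test of a single gene cannot go below p = 0.333. Mitochondrially encoded genes took 3.55% and 2.72% of the counts in the untreated pair and 4.12% and 5.73% with AX-0085. A pair of lncRNA genes on the short arm of chromosome 21, ENSG00000280441 and ENSG00000278996, took together 3.65% and 5.78% in untreated cells and 2.11% and 1.83% with AX-0085. The part that these library differences play in the results was not tested, and in bulk RNA fewer cells of a type and less RNA per cell cannot be told apart.

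AX-0085 alone changed many genes in both directions. Of 15066 genes tested, 966 were called higher (6.41%) and 846 were called lower (5.62%). These shares are the reference for each list count below. The adjusted p alone was under the threshold in 4018 genes that were higher and 4010 that were lower. Most shifts were small, since the middle 90% of genes lay between log2 fold changes of −1.11 and 1.21 around a median of 0.014. A log2 fold change over 2 in size was called in 162 higher and 126 lower genes. The 2 groups did not overlap in 11484 of the tested genes (76.2%), all 1812 called genes among them, so that lack of overlap sets no called gene apart. The calls fell unevenly over gene types. Among 12319 protein-coding genes, 5.33% were called higher and 5.78% lower, whereas among 1702 lncRNA genes 11.2% were called higher and 6.17% lower. Called shares also moved with abundance, from 14.7% higher and 9.12% lower in genes with a mean log2 CPM of 0 or below to 1.9% higher and 4.62% lower in genes between 6 and 8. The plot of change against abundance shows this widening at low levels.

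**Figure D1:**
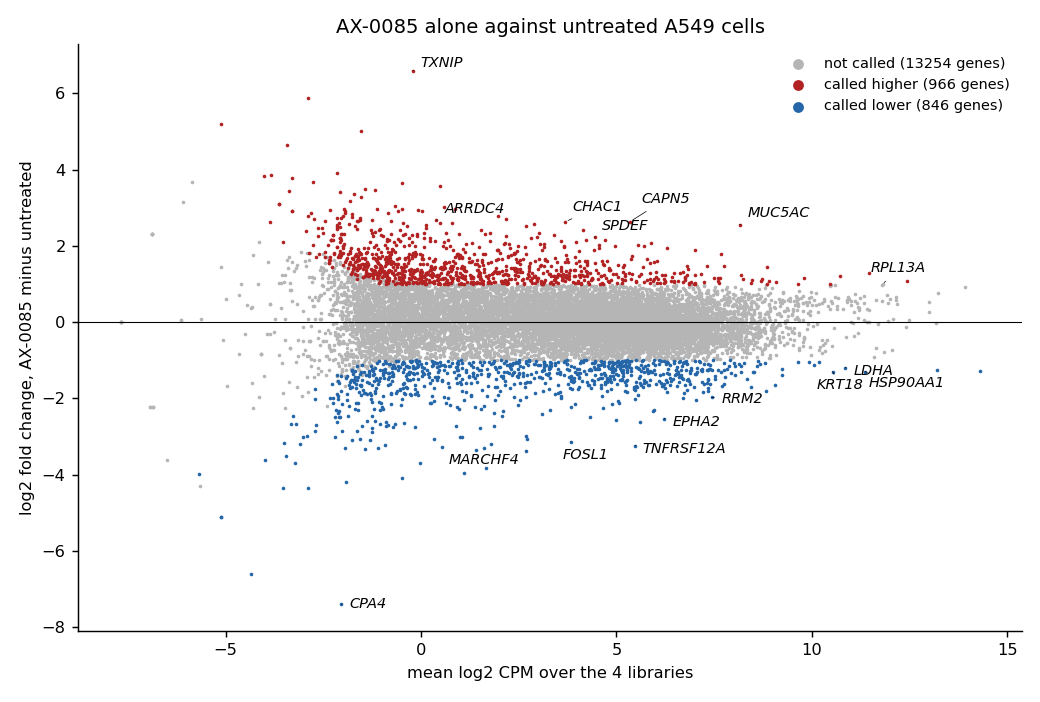
Log2 fold change of AX-0085 over untreated cells (vertical axis) against the mean log2 CPM over the 4 libraries (horizontal axis), with 1 point per tested gene. The 966 genes called higher are red, the 846 called lower are blue and the others are grey. TXNIP at 6.60 and CPA4 at −7.40 mark the ends of the range.

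The 15 largest falls, counted where the mean log2 CPM was 2 or more, were in genes of varied function. FOSL1, an AP-1 transcription factor whose gene is switched on by ERK, had 1260 and 1048 counts in the untreated pair and 126 and 121 counts with AX-0085. The groups lay about an order of magnitude apart without overlap, with a log2 fold change of −3.14 ± 0.091 (SE, n = 2 libraries per group, edgeR adjusted p = 1.54e-10). TNFRSF12A, the receptor for the cytokine TWEAK, fell from 3896 and 3555 counts to 354 and 395 (log2 fold change −3.24, edgeR adjusted p = 6.66e-11). MARCHF4, a membrane-bound ubiquitin ligase, fell from 20.4 and 22.4 CPM to 2.75 and 1.39 (−3.37, adjusted p = 8.86e-09). EPHA2, an ephrin receptor tyrosine kinase, went from 5297 and 4560 counts to 781 and 826 (−2.54, adjusted p = 6.66e-11). In all 4 genes both treated libraries lay far below both untreated ones. Other genes among the 15 largest falls were HAS3, which makes hyaluronan (−2.56), MYEOV (−2.62), PADI3, a peptidylarginine deiminase (−2.48), ZNF488 (−2.41), C11orf86 (−2.30) and the chromosome 21 lncRNA ENSG00000279501 (−3.07).

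Among 22 tested genes of ERK pathway output, 8 were called lower and 4 higher, with a median log2 fold change of −0.69 against 0.014 over all tested genes. Beside FOSL1 and EPHA2, the called falls included ETV5, an ETS transcription factor, from 1411 and 1163 counts to 216 and 218 (−2.48, edgeR adjusted p = 3.04e-10). The feedback inhibitor SPRY4 fell from 297 and 233 counts to 50 and 49 (−2.33, adjusted p = 7.10e-08). DUSP6, the phosphatase that removes activating phosphates from ERK, fell from 223 and 154 counts to 74 and 68 (−1.32, adjusted p = 2.32e-05). The list was not uniform. The related feedback genes SPRY1 (33 and 36 against 70 and 74 counts, 1.14) and SPRED3 (1.20), the immediate-early gene FOS (237 and 175 against 569 and 325 counts, 1.21) and EPHA4 (1.59) were called higher. Without AX-0085 replicate 1, FOS was at 0.70 and was not called. CCND1, the cyclin D1 gene, changed by −0.61 (adjusted p = 1.63e-06) and did not reach the fold threshold.

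Genes of the receptors and their ligands moved both ways. Of 25 tested receptor tyrosine kinases, 3 were called lower and 4 higher with a median of −0.035. AXL fell from 11193 and 9429 counts to 3147 and 3199 (−1.62, edgeR adjusted p = 6.92e-10) and FGFR1 by −1.35, whereas ERBB3, the kinase-impaired partner of HER2, rose from 147 and 104 counts to 362 and 377 (1.65, adjusted p = 1.28e-07) and FGFR3 by 1.34. Of 9 tested EGF-family ligands, NRG1 (−1.50) and HBEGF (−1.54) were called lower and BTC (1.40) higher, with a list median of −0.072.

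Of 22 tested YAP-TEAD target genes, 8 were called lower and none higher, with a median of −0.72. ANKRD1, a nuclear cofactor used as a readout of YAP, had 260 and 203 counts in the untreated pair and 11 and 17 with AX-0085 (−3.95, edgeR adjusted p = 8.44e-08). CCN1, a secreted matrix-associated protein, fell from 1938 and 1704 counts to 538 and 566 (−1.64, adjusted p = 1.49e-09). AMOTL2, which holds YAP at cell junctions, fell by 2.33 on the log2 scale and the kinase NUAK2 by 1.83. CCN2 fell from 544 and 450 counts to 65 and 53 (−2.99), although all of its exon bases lie within another gene of the annotation and its reads cannot be assigned with certainty. Of 24 tested actin and SRF target genes, 22 were lower but 3 were called, TPM1 (−1.26), TAGLN (−1.01) and CNN1, with 7 counts or fewer in each library (list median −0.41). The number called was 1 without untreated replicate 2 or without AX-0085 replicate 1, and 2 without AX-0085 replicate 2.

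Several chemokine and NF-kB genes fell in the absence of added interferon. Of 25 tested NF-kB target and cytokine genes, 11 were called lower and none higher, while 7 of the 14 not called had values above 0. The median was −1.02, and the list median ranged from −1.10 to −0.61 over the alternative settings, the upper end without AX-0085 replicate 1. CXCL5, a neutrophil-attracting chemokine, had 4489 and 3186 counts in the untreated pair and 660 and 805 with AX-0085 (−2.30, edgeR adjusted p = 1.91e-09). CCL2, which attracts monocytes, fell from 168 and 151 counts to 20 and 17 (−3.02, adjusted p = 7.33e-08). CXCL8 fell from 49 and 41 counts to 4 and 9 (−2.68) and CXCL1 from 82 and 59 to 20 and 10 (−2.13). The subunit genes RELB (−1.39) and NFKB2 (−1.18) and the inhibitor gene NFKBIE (−1.44) were also called lower. NFKBIA, another inhibitor gene that NF-kB induces, had 1760 and 1483 counts in the untreated pair and 1542 and 1546 with AX-0085 (0.012, adjusted p = 0.896). The subunit gene RELA was at 0.074 (adjusted p = 0.331).

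**Figure D2:**
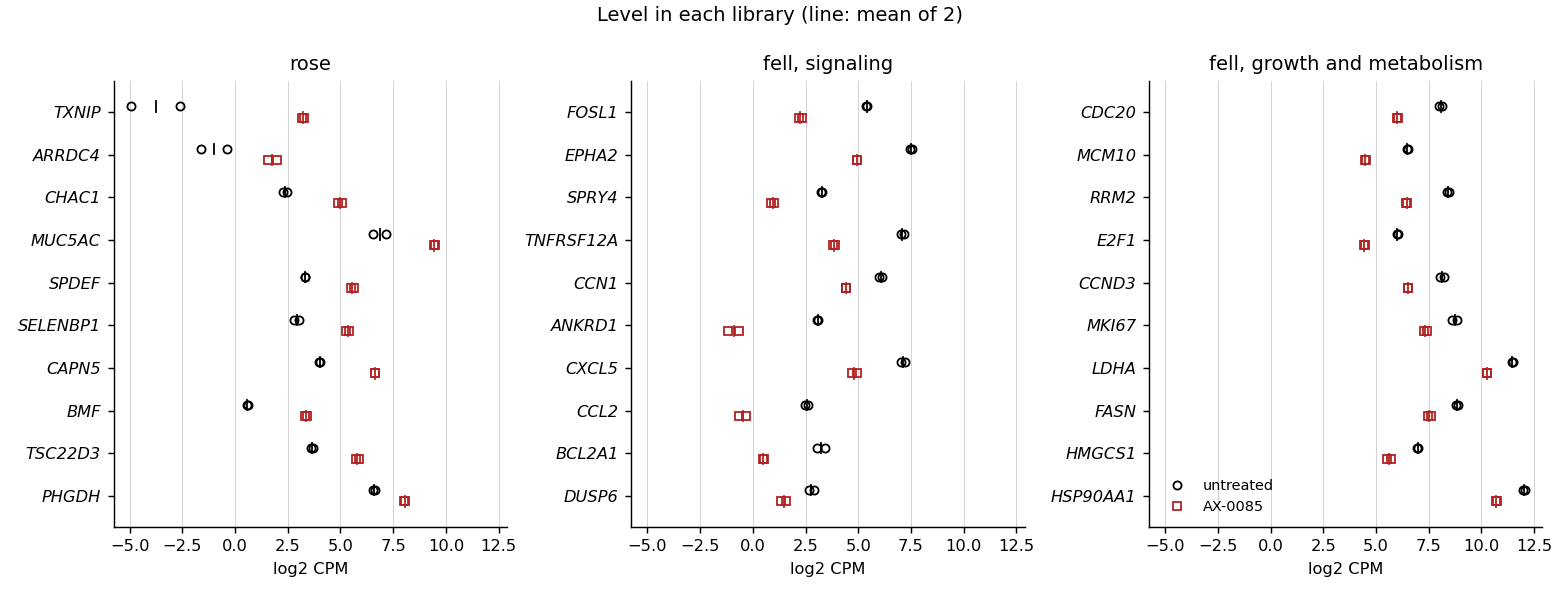
Level of 30 genes in each library as log2 CPM (horizontal axis), with untreated libraries as black circles, AX-0085 libraries as red squares and a short line at the mean of the 2 libraries. The 2 groups do not overlap in any of the 30 genes, as in 76.2% of all tested genes, and the widest gap is in TXNIP, whose untreated libraries hold 1 and 4 counts.

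Cell-cycle genes fell with little spread among them. In the list of CDK1, mitotic cyclins and checkpoint kinases, 24 of 28 tested genes were called lower and all 28 were lower, with a median log2 fold change of −1.45. In the kinetochore and spindle list, 38 of 46 were called lower and all 46 were lower (median −1.40). The chromosome condensation list followed with 8 of 10 (median −1.20). None of these genes was called higher. Of all tested genes, 5.62% were called lower and 6.41% higher. The counts held when any single untreated or treated library was left out, at 24 to 25 of 28, 36 to 39 of 46 and 7 to 8 of 10. The narrow spread of the members is seen in the plot of gene lists.

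Within mitosis, CDC20, the activator of the anaphase-promoting complex, had 7754 and 6843 counts in the untreated pair and 1587 and 1760 with AX-0085 (−2.05 ± 0.073 SE, edgeR adjusted p = 7.21e-10). CCNB1, the cyclin partner of CDK1, fell from 11022 and 9393 counts to 3040 and 2972 (−1.68, adjusted p = 1.52e-09). CDK1 itself fell from 4794 and 3879 counts to 1437 and 1595 (−1.43, adjusted p = 1.49e-09). MYBL2, which turns on late cell-cycle genes, changed by −1.77 and PKMYT1, a kinase that restrains CDK1, by −1.93. Of the genes that build and move the spindle, ANLN (9148 and 7419 counts to 2135 and 2365, −1.80), ECT2 (−1.74), DLGAP5 (−1.73) and SPC25 (−1.69) fell most. MKI67, which coats mitotic chromosomes and is the usual proliferation marker, fell from 14020 and 9435 counts to 3849 and 4483 (−1.40, adjusted p = 2.58e-08). The condensin subunits NCAPH and NCAPG fell by 1.62 and 1.60 on the log2 scale.

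The promoters of the mitotic genes shared a short element. The CHR, searched as TTTGAA or TTCGAA on both strands from 250 bases before to 50 bases after the start in RefSeq promoters (GRCh38.p14), occurred in 29 of 38 promoters of the kinetochore and spindle list (76.3%), in 11 of 21 of the CDK1 list (52.4%) and in 6 of 9 of the condensation list (66.7%). It occurred in 11.3% of the 10669 promoters of tested genes and in 16.6% of all 27305 promoters. Over all called genes, 127 of 594 promoters of genes called lower held it (21.4%), as did 72 of 582 promoters of genes called higher (12.4%). CCAAT was found in 71.1% of promoters of the kinetochore and spindle list and in 35.8% of promoters of tested genes. These matches are descriptions of letters, and binding was not measured. Shown here, from 150 bases before to 25 after the start and 5′ to 3′ on the gene's strand, are the 4 called mitosis genes with the largest falls that hold a CHR in this stretch, with the CHR letters in capitals.
CDC20 (chr1:43358831-43359005, plus strand): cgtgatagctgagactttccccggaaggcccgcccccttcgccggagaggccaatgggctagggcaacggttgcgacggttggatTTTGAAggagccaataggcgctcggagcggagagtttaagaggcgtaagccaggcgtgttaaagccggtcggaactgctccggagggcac
ANLN (chr7:36389712-36389886, plus strand): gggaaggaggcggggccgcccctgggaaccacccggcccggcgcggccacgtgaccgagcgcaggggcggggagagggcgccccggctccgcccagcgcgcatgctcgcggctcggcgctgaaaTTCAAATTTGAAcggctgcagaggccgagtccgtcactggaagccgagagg
ECT2 (chr3:172750576-172750750, plus strand): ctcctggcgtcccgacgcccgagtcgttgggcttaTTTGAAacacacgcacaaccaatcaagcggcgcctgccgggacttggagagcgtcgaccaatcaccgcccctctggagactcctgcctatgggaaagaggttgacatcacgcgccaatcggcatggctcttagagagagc
DLGAP5 (chr14:55191561-55191735, minus strand): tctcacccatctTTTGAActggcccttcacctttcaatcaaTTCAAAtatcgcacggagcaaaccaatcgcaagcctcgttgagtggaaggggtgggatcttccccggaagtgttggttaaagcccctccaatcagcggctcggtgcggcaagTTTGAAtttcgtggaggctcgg
The capitals sit 65 bases before the start in CDC20 and 26 and 20 bases before it in ANLN, where the element occurs as adjoining copies on opposite strands.

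DNA replication genes had a smaller median fall and a wider spread than the kinetochore list, from −2.01 to nearly 0 against −1.80 to −0.76. All 43 tested genes of the replication fork and its licensing were lower and 18 were called, with a median of −0.91. Of 15 genes for nucleotide synthesis and chromatin assembly in S phase, all were lower and 9 were called (median −1.12), and of 26 homologous recombination and Fanconi genes 16 were called lower (median −1.05), with FANCF above 0 at 0.72 and not called. The recombination count ranged from 12 to 17 without single libraries. MCM10, which helps activate the replicative helicase, had 2765 and 2166 counts in the untreated pair and 551 and 604 with AX-0085 (−2.01, edgeR adjusted p = 1.34e-09). RRM2, the regulated subunit of ribonucleotide reductase, fell from 10088 and 8710 counts to 2143 and 2373 (−1.98, adjusted p = 1.54e-10). CDC45 (−1.76), GINS2 (−1.69) and CDC6 (−1.57) also fell, as did the helicase subunit MCM2, from 4032 and 3575 counts to 1528 and 1685 (−1.17, adjusted p = 1.09e-08). Among the called recombination genes, the exonuclease gene EXO1 was at −1.55.

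A part of the replication promoters held E2F-like letters. The E2F-like letters GGCGGGAA or GCGCGAAA, on either strand, occurred in 13 of 38 promoters of replication genes (34.2%) and in 11 of 23 of recombination genes (47.8%), against 5.99% of promoters of tested genes, whereas a CHR was found in 2 of 38 replication promoters (5.26%). CCAAT was found in 55.3% of replication promoters. In MCM7 the last base of the element is also the first base of a CCAAT box. The called replication genes with the largest falls that hold it are shown over the same stretch, with the E2F-like letters in capitals.
GINS2 (chr16:85688930-85689104, minus strand): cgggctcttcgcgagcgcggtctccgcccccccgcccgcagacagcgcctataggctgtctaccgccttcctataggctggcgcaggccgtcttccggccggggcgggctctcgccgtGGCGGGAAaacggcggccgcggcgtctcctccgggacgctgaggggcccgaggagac
MCM7 (chr7:100101373-100101547, minus strand): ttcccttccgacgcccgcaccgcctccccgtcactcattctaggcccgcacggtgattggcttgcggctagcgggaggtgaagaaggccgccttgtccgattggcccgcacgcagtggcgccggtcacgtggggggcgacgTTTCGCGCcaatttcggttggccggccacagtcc
In MCM7, whose counts gave a log2 fold change of −1.49, the element lies 9 bases before the start on the opposite strand.

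Control of entry into S phase moved the same way at its E2F and cyclin E end. Of 29 tested G1-S genes, 8 were called lower and 2 higher, with a median of −0.34. CCND3, the cyclin D3 gene, fell from 7916 and 7245 counts to 2320 and 2413 (−1.60, edgeR adjusted p = 2.39e-09), and E2F1 fell from 1931 and 1594 to 552 and 574 (−1.56, adjusted p = 3.67e-09). The phosphatase gene CDC25A was at −1.76 and CCNE1 at −1.24, while CCNE2 was at −1.43 with 50.2% of its exon bases within another gene. CDKN1C, a CDK inhibitor gene, rose from 17 and 13 counts to 53 and 43 (1.76, adjusted p = 0.000173) and MXD4, an antagonist of MYC, from 680 and 697 to 1659 and 1565 (1.30). CDKN1A, the p21 gene, was level, with 1892 and 1739 counts in the untreated pair and 1775 and 1742 with AX-0085 (0.032, adjusted p = 0.757). Of 25 tested p53 target genes, PLK2 was called lower (6092 and 5154 counts to 1339 and 1355, −1.98) and 2 were called higher, with a list median of 0.032.

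**Figure D3:**
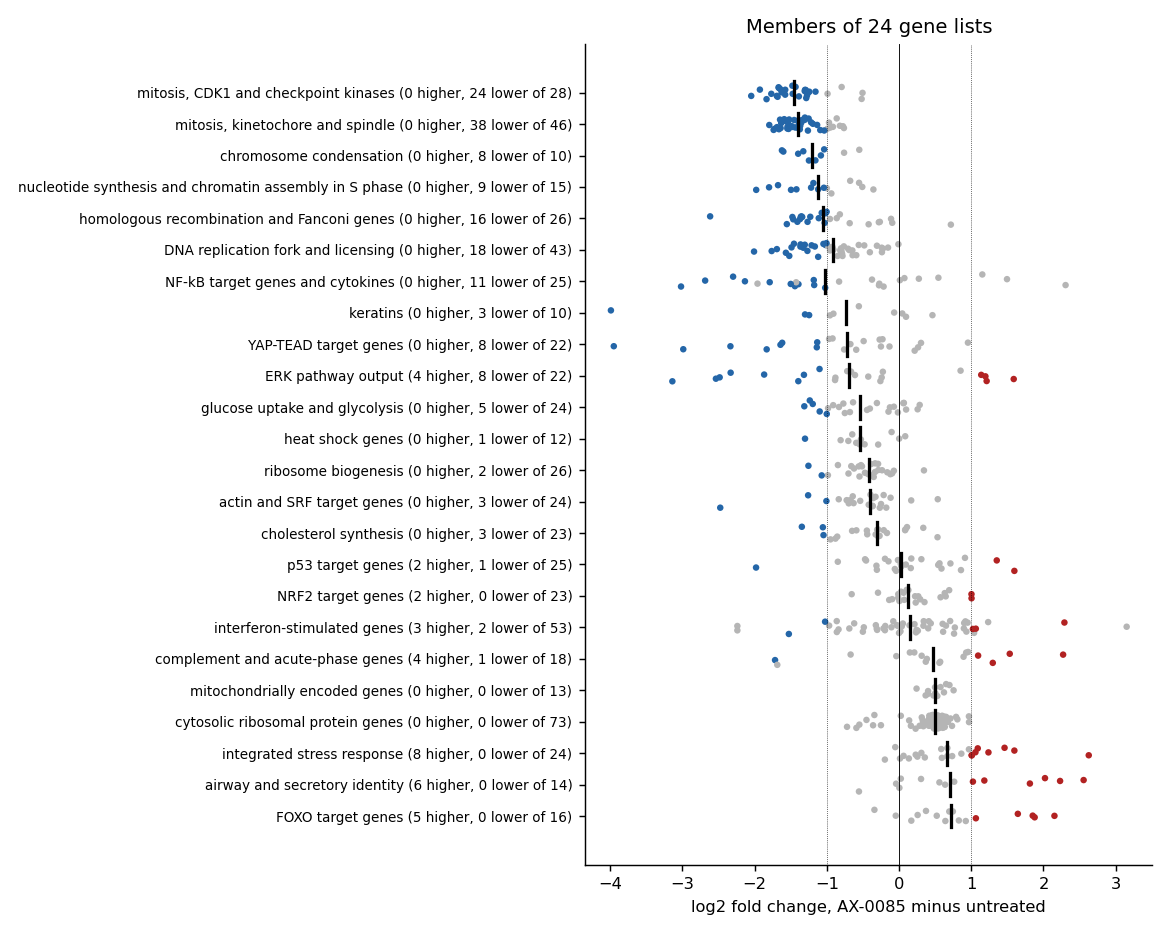
Log2 fold change of AX-0085 over untreated cells (horizontal axis) for each tested member of 24 gene lists, with called members in red (higher) or blue (lower), the others in grey, a black line at the list median and dotted lines at the fold threshold. Mitosis and replication members lie almost wholly to the left of 0, with medians from −1.45 to −0.91, and the stress-response, secretory and FOXO lists have medians between 0.67 and 0.72.

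The largest rise was in TXNIP, which binds thioredoxin and limits glucose uptake and whose gene is turned on by the glucose-sensing factor MondoA. It had 1 and 4 counts in the untreated pair and 229 and 253 with AX-0085, so that it was near the detection limit without treatment. The log2 fold change was 6.60 ± 0.29 (SE, edgeR adjusted p = 2.02e-09), and the ratio of pooled counts was 102, with a 95% exact interval of 43.5 to 316 that covers counting error only. ARRDC4, a related alpha-arrestin and another MondoA target, rose from 10 and 19 counts to 73 and 104 (2.68 ± 0.30 SE, adjusted p = 8.21e-06). In both genes the treated libraries held the higher counts, and ARRDC4 was also low in untreated cells. Of 7 tested genes of this list, only TXNIP and ARRDC4 were called, with ARRDC3 at 0.70 and the MondoA gene MLXIP at 0.97 below the fold threshold (list median 0.70). Because TXNIP and ARRDC4 rose together, the letters from 250 bases before to 25 after their starts are given, with CCAAT boxes and CACGTG E-boxes on either strand in capitals.
TXNIP (chr1:145996555-145996829, minus strand): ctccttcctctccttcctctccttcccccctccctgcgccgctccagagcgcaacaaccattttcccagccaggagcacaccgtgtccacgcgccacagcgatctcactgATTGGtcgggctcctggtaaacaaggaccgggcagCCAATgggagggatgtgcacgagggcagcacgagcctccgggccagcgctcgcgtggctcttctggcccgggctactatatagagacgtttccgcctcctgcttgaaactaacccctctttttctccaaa
ARRDC4 (chr15:97960453-97960727, plus strand): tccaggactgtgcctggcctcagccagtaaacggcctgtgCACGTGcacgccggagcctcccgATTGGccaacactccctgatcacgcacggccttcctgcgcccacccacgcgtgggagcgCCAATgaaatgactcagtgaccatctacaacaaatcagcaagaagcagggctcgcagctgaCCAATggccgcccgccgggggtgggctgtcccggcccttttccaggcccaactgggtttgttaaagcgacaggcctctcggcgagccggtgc
TXNIP held 2 CCAAT boxes, 140 and 105 bases before the start, and no exact E-box in the 300 bases searched. ARRDC4 held 3 CCAAT boxes and 1 E-box, the latter 210 bases before the start. An exact E-box was present in 9.79% of promoters of tested genes and CCAAT in 35.8%.

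Genes of the integrated stress response, in which the factor ATF4 turns on amino acid supply, rose. Of 24 tested members, 22 were higher and 8 were called higher, with none called lower and a median of 0.67, against 6.41% of all tested genes called higher. DESeq2 also called 8, and the test against a 2-fold change called 4. Fewer than 8 were called when any single untreated or treated library was left out. The list median stayed between 0.65 and 0.68 over the alternative settings. CHAC1, which degrades glutathione, had 146 and 135 counts in the untreated pair and 849 and 792 with AX-0085 (2.63 ± 0.11 SE, edgeR adjusted p = 1.67e-09). SESN2, a leucine sensor upstream of mTORC1, rose from 310 and 266 counts to 813 and 833 (1.60, adjusted p = 2.22e-09). PHGDH, the first enzyme of serine synthesis, rose from 2776 and 2435 to 6784 and 6787 (1.46, adjusted p = 5.26e-09). ATF4 rose from 10993 and 9397 to 19994 and 20126 (1.06, adjusted p = 5.92e-08), close to the fold threshold, and TRIB3 rose by 1.24. Not every ATF4 target followed, since PPP1R15A was at −0.20 and the amino acid transporter genes SLC7A5 and SLC3A2 were at 0.013 and −0.053. ASNS had no counts in any library, and 99.8% of its exon bases lie within another gene, so its level is not known from these counts. In the related list of ER chaperones, XBP1 was the only 1 of 18 called (2102 and 1869 counts to 4507 and 4355, 1.24), with HSPA5 at −0.047 and a list median of −0.040.

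Genes that FOXO factors turn on when growth-factor signaling is low were higher as a group, with 5 of 16 called higher, none lower and a median of 0.72. TSC22D3, a leucine-zipper protein also induced by glucocorticoids, rose from 392 and 295 counts to 1464 and 1407 (2.15, edgeR adjusted p = 1.33e-09). FOXO4 rose from 76 and 79 counts to 293 and 246 (1.88), and PIK3IP1, an inhibitor of PI3-kinase, rose from 37 and 26 to 94 and 121 (1.85). CCNG2 (1.06) and ERBB3 were the other called members. In the BCL2 family, which governs mitochondrial cell death, the pro-death genes BMF (44 and 38 counts to 252 and 282, 2.78, adjusted p = 1.19e-08), HRK (1.42) and BBC3 (205 and 241 to 536 and 548, 1.35) were called higher. The survival genes BCL2A1 (253 and 260 counts to 35 and 38, −2.73, adjusted p = 7.26e-08) and BCL2L1 (5407 and 4567 to 2001 and 2111, −1.20) were called lower. The other 9 of 14 tested members were not called, and the family's median was −0.37.

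Genes of secretory airway epithelium were higher. Of 14 tested members of the airway and secretory list, 6 were called higher and none lower, with a median of 0.70. MUC5AC, the main gel-forming mucin of airway goblet cells, had 4314 and 2318 counts in the untreated pair and 17397 and 18708 with AX-0085 (2.56 ± 0.14 SE, edgeR adjusted p = 1.18e-08). SPDEF, the goblet-cell transcription factor, rose from 301 and 247 counts to 1234 and 1191 (2.23 ± 0.092 SE, adjusted p = 1.49e-09). MUC5B, the other gel-forming airway mucin, rose from 100 and 54 to 241 and 267 (1.81), and MUC16 (2.02), SOX4 (1.18) and FOXA3 (1.02) were called as well. In MUC5AC and MUC5B the untreated libraries differed from each other, yet both lay below both treated libraries. FOXA2, a lung epithelial factor, was at 0.30 and AGR2, which folds mucins, at 0.56, both below the fold threshold. Of 7 marker genes of alveolar type II cells, 3 were tested. All 3 were higher and 1 was called higher, with a median of 1.12 and a largest value of 3.44. Among the 7 markers, SFTPA1 had no counts and SFTPB had 1 count or fewer in each library. SFTPC had 0 and 2 counts in the untreated pair and 12 and 11 with AX-0085.

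Several of the largest rises belonged to no list. CAPN5, a calpain protease, rose from 501 and 391 counts to 2524 and 2672 (2.63, edgeR adjusted p = 1.23e-10). SELENBP1, a methanethiol oxidase of differentiated epithelium, rose from 250 and 169 to 1079 and 1028 (2.42, adjusted p = 3.24e-09). IL3RA, the alpha subunit of the interleukin-3 receptor, rose from 60 and 37 to 279 and 319 (2.71, adjusted p = 7.35e-08). CACNA1D, a calcium channel subunit, was at 2.59, the cadherin gene CDH17 at 2.52, CORO2A at 2.35, the semaphorin receptor gene PLXNA2 at 2.24 and FGL1 at 2.16. The tight-junction gene TJP3, at 2.22, does belong to a list, that of epithelial EMT genes below. GTF2IRD2P1, at 2.26, is a pseudogene with 94.9% of its exon bases within another gene. Other genes that were almost silent in untreated cells were picked after their values were seen. ADRA2A, an adrenergic receptor gene, had 1 and 0 counts in the untreated pair and 40 and 30 with AX-0085. GPR132, a lysophospholipid and lactate receptor gene, had 6 and 0 counts and then 89 and 103. CPA4, a carboxypeptidase gene also picked this way, went in the other direction, from 122 and 102 counts to 0 and 1.

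A minority of genes of glycolysis and lipid synthesis were called, all of them lower, where 5.62% of all tested genes were called lower. Of 24 tested genes of glucose uptake and glycolysis, 19 were lower and 5 were called lower, with none called higher and a median of −0.54, and 3 were called without untreated replicate 2. LDHA, which makes lactate, had 84245 and 70103 counts in the untreated pair and 31051 and 32643 with AX-0085 (−1.20, edgeR adjusted p = 1.18e-08). PFKP, a phosphofructokinase isoform, fell from 16031 and 14646 to 5633 and 6098 (−1.31), and PGAM1 (−1.24), the lactate exporter SLC16A3 (−1.10) and ENO2 were also called. GAPDH did not follow, with 166027 and 139279 counts in the untreated pair and 148411 and 153674 with AX-0085 (0.067, adjusted p = 0.495), and neither did the glucose transporter gene SLC2A1 (0.098, adjusted p = 0.199). Of 23 cholesterol synthesis genes, HMGCS1 (3751 and 3098 counts to 1302 and 1238, −1.35), INSIG1 (−1.05) and ACAT2 (−1.05) were called lower and none higher (median −0.30). Of 14 fatty acid synthesis genes, FASN (13266 and 11650 to 4892 and 4646, −1.31) and FADS2 (−1.11) were called lower (median −0.42).

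Translation genes split by class. All 73 tested cytosolic ribosomal protein genes stayed within the fold threshold, but 66 of them were higher, with a median of 0.50. The ribosome biogenesis list was lower in 25 of 26 genes with a median of −0.42, and TCOF1, a nucleolar factor for rRNA transcription (6761 and 5449 counts to 2324 and 2502, −1.25, edgeR adjusted p = 2.14e-09), and LYAR (−1.07) were called. EEF2, the elongation factor that moves the ribosome along the mRNA, and PABPC1, which binds poly(A) tails, were singled out after their values were seen. EEF2 rose from 52101 and 47051 counts to 112299 and 116318 (1.28, adjusted p = 2.58e-08) and PABPC1 from 33242 and 27884 to 62962 and 71065 (1.21, adjusted p = 1.48e-08). All 13 mitochondrially encoded mRNAs were higher and none was called (median 0.50), beside the higher mitochondrial share of the treated libraries given above, and the median was 0.22 without AX-0085 replicate 2 and 0.75 without AX-0085 replicate 1. Of 63 nuclear respiratory chain genes, 1 was called, COX7B2 with 22 counts or fewer in each library (median −0.185). In the heat shock list HSP90AA1 was the only 1 of 12 called, from 121066 and 103780 counts to 42194 and 44045 (−1.30), with a list median of −0.54.

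The interferon system was examined in cells that had received no interferon. Of 53 tested interferon-stimulated genes, 3 were called higher and 2 lower, shares near the 6.41% and 5.62% over all tested genes, with a median of 0.145, and 1 was called lower without untreated replicate 1 or without AX-0085 replicate 2. GBP2, an interferon-induced GTPase, rose from 9 and 9 counts to 51 and 33 (2.29, edgeR adjusted p = 9.28e-05), and IFI16 (1.06) and APOL6 (1.02) rose as well. IRF8 fell from 16 and 12 counts to 5 and 4 and APOL1 from 277 and 252 to 120 and 126 (−1.02). CD274, which encodes PD-L1, had 3 and 5 counts in the untreated pair and 3 and 10 with AX-0085 (0.76, adjusted p = 0.347), too few to show a difference, and 87.8% of its exon bases lie within another gene. JAK2 was at −0.18 (adjusted p = 0.227), and SYK, with 10 counts or fewer in each library, was not tested. Of 25 JAK-STAT components, JAK3 (50 and 59 counts to 169 and 141, 1.58) was called higher and the feedback inhibitor SOCS3 (1150 and 1081 to 508 and 449, −1.14) lower, with a median of 0.016. Of 9 tested checkpoint ligand genes, TNFSF4 and LGALS9 were called higher and TNFSF9 lower, with a median of −0.27. TNFSF4 and LGALS9 had 35 counts or fewer in each library, and leaving out any of the 4 libraries left 1 gene of the list called higher.

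Adhesion, matrix and epithelial genes were mixed. Of 30 tested collagen and laminin genes, 6 were called lower and 4 higher, with a median of −0.14. Fewer were called lower when any single untreated or treated library was left out, and fewer higher without untreated replicate 2. The test against a 2-fold change called 3 lower and 2 higher. COL13A1, among those called lower, had 21 counts or fewer in each library. LAMB2, a basement-membrane laminin chain, rose from 2141 and 1596 to 4970 and 4714 (1.46, edgeR adjusted p = 3.02e-09). Of 10 tested keratins, KRT18 fell from 68523 and 58518 counts to 24086 and 24634 (−1.30, adjusted p = 9.25e-09) and KRT15 was called lower (−1.25), KRT16 was called on 4 counts in all, and none was called higher (median −0.73). KRT7 stayed level at 0.045. Among epithelial genes of the EMT list, TJP3, EPCAM (103 and 81 to 209 and 229, 1.33), CLDN3 (1.28) and DSP (1.04) were called higher and GRHL1 (−1.94) lower, of 14 tested (median 0.40). Among 11 mesenchymal genes SPARC was called lower (209 and 209 to 36 and 61, −2.03) and VIM higher at 1.00, and VIM lost its call without untreated replicate 2 or without AX-0085 replicate 1 (median −0.125). Of 19 integrin subunit genes 3 were called higher, ITGAX (1.45), ITGAL (1.36) and ITGA7 (1.29), and none lower (median −0.145).

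The remaining lists are given beside the 12% of all tested genes that were called in either direction. Of 17 TGF-beta target genes, 1 was called lower and BAMBI was called higher (1.27), with a median of 0.18. Of 15 plasminogen-system and matrix protease genes, 3 were called lower, among them PLAT (−1.18) and MMP15 (−1.09), and SERPINF2 was called higher (1.66), with a median of −0.75. NRF2 target genes, which A549 cells express highly, had AKR1C1 (1.00) and ABCC3 (1.00) called of 23 with a median of 0.13. Both sat at the fold threshold, 1 was called without untreated replicate 2 or without AX-0085 replicate 1, and NQO1 was at 0.11. Of 24 lysosome and autophagy genes, GPNMB (1.77), NEU1 (1.09) and GABARAPL1 (1.00) were called higher (median 0.16). In the hypoxia list CA9 (−1.76) and ADM (−1.38) were called lower and LOX, with 74.0% of its exon bases within another gene, higher on 14 counts or fewer in each library, of 16 (median −0.15), and no member was called higher without either untreated library or without AX-0085 replicate 2. Among 18 complement and acute-phase genes, 4 were called higher, including AMBP (1.09), and 1 lower (median 0.47). MT1F was the only 1 of 8 metallothionein and zinc transport genes called (48 and 43 to 156 and 112, 1.64, list median −0.37). Of 22 RAB and synaptotagmin genes, RAB37 (155 and 109 counts to 623 and 597, 2.30) and SYT1 (1.14, with 60.8% of its exon bases within another gene) were called higher and SYT12 (−1.97), RAB3B (−1.64) and SYT7 (−1.03) lower (median −0.037). Without untreated replicate 1, SYT1 was at 1.00 and RAB37 was the only 1 called higher.

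Genes commonly used as RT-PCR references differed between the groups. ACTB, which encodes beta-actin, went from 158754 and 138508 counts to 80772 and 89585 (−0.73, edgeR adjusted p = 4.51e-06) and HPRT1 from 2984 and 2232 to 1461 and 1624 (−0.67, adjusted p = 3.60e-06). RPL13A, a ribosomal protein gene, went from 73486 and 64830 to 130472 and 125407 (0.97, adjusted p = 1.59e-06). None of the 3 passed the fold threshold, and their median was −0.67. RPL13A was called higher without untreated replicate 2 (1.03) or without AX-0085 replicate 2 (1.04).

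Marker genes were those of A549. KRT7, KRT8, KRT18 and KRT19 were all expressed, and epithelial markers summed to 9160 and 9530 CPM in untreated cells and 6200 and 5900 with AX-0085. The sum weighs abundant genes most. Of the 6 markers 4 were higher and 2 lower, with EPCAM called higher, KRT18 called lower and a median log2 fold change of 0.071. The deleted CDKN2A, CDKN2B and MTAP had no counts, although they also overlap other genes fully and so would carry few assigned reads in any cell. Immune markers summed to between 3.94 and 6.06 CPM, fibroblast markers to between 9.49 and 11.1 and endothelial markers to at most 0.528 in every one of the 4 libraries, and PTPRC had at most 1 count in each. Alveolar type II markers summed to 58.5 and 58.6 CPM in untreated cells and 77.3 and 73.5 with AX-0085, and NRF2 and aldo-keto reductase markers to 20700 and 20000 and to 25200 and 24100.

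AX-0085 was also added to IFN-γ-treated cells, and that contrast shares no library with AX-0085 against untreated cells. There, 2485 genes (16.5%) were called higher and 1248 (8.28%) lower against IFN-γ. Of the 966 genes that rose with AX-0085 alone, 846 had the same sign when it was added to IFN-γ (87.6%) and 560 were called higher again, with a median of 1.35 beside 1.39 alone. Of the 846 genes that fell alone, 633 had the same sign (74.8%) and 283 were called lower again, with a median of −0.64 beside −1.39 alone. Across all tested genes the log2 fold changes of the contrasts had a Pearson's r of 0.462, where genes are not independent replicates. The interaction, which tests the difference between the effects, was called in 645 of the 1812 changed genes (35.6%), against 18.6% of all tested genes. These 1812 genes were chosen by their change with AX-0085 alone, which also enters the interaction with the opposite sign. That choice by itself raises the share and makes changes with IFN-γ tend to look smaller than those alone. How much of these differences it accounts for was not tested. Of the 308 genes called higher with an interaction, the change was larger in the presence of IFN-γ in 141 and smaller or opposite in 167. Of the 337 genes called lower with an interaction, 285 fell less or rose in the presence of IFN-γ and 52 fell more.

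Lists differed in this. The median of the replication list was −0.91 alone and −0.074 with IFN-γ, and the interaction was called in 15 of 43 members. For the kinetochore and spindle list the medians were −1.40 and −0.61 with 11 of 46 called, and for the CDK1 list −1.45 and −0.65 with 8 of 28. The starting levels differed, since IFN-γ alone had already lowered these lists against untreated cells. Its medians were −1.02 for replication, −0.45 for kinetochore and spindle and −0.48 for the CDK1 list. The part that the starting level plays in the interactions was not tested. E2F1 fell alone by 1.56 on the log2 scale and was at 0.57 with IFN-γ (interaction 2.13 ± 0.11 SE, edgeR adjusted p = 1.20e-08). With IFN-γ alone E2F1 was at −2.31 against untreated cells. The stress-response list had medians of 0.67 alone and −0.38 with IFN-γ, with 14 of 24 interactions called, all of them lower. Interferon-stimulated genes had medians of 0.145 and −2.38, with 42 of 53 called. IFN-γ alone had raised both lists, with medians of 1.88 for the stress response and 4.12 for interferon-stimulated genes. For other genes the interaction missed the threshold. MUC5AC was at 2.56 alone and 2.81 with IFN-γ (interaction 0.25, adjusted p = 0.283), ANKRD1 at −3.95 and −4.62 (−0.67, adjusted p = 0.350), CCL2 at −3.02 and −2.81 (0.21, adjusted p = 0.774) and IL3RA at 2.71 and 2.63 (−0.076, adjusted p = 0.840), although an interaction that misses the threshold does not show equal effects.

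**Figure D4:**
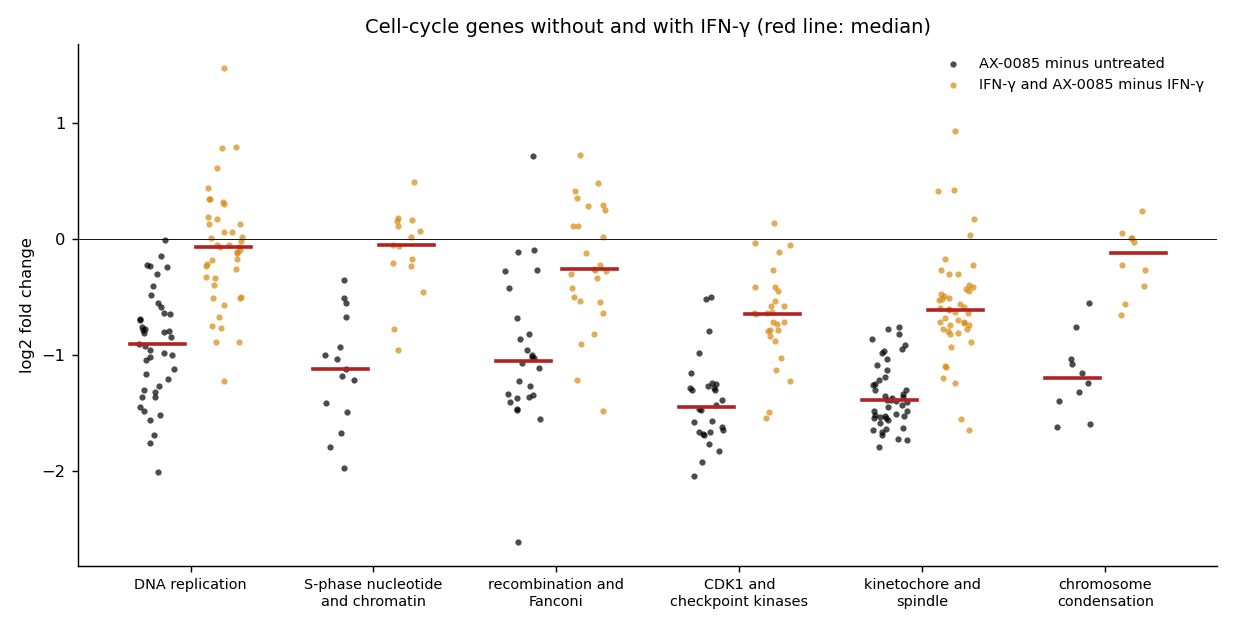
Log2 fold change (vertical axis) of each tested member of 6 cell-cycle lists (horizontal axis) with AX-0085 alone over untreated cells (black) and with AX-0085 added to IFN-γ over IFN-γ (orange), with red lines at the medians. Every black median lies between −1.45 and −0.91 and every orange median between −0.65 and −0.052. IFN-γ alone over untreated cells, not drawn, gave medians between −1.21 and −0.45 for these lists, so the orange changes start from lower levels.

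**Figure D5:**
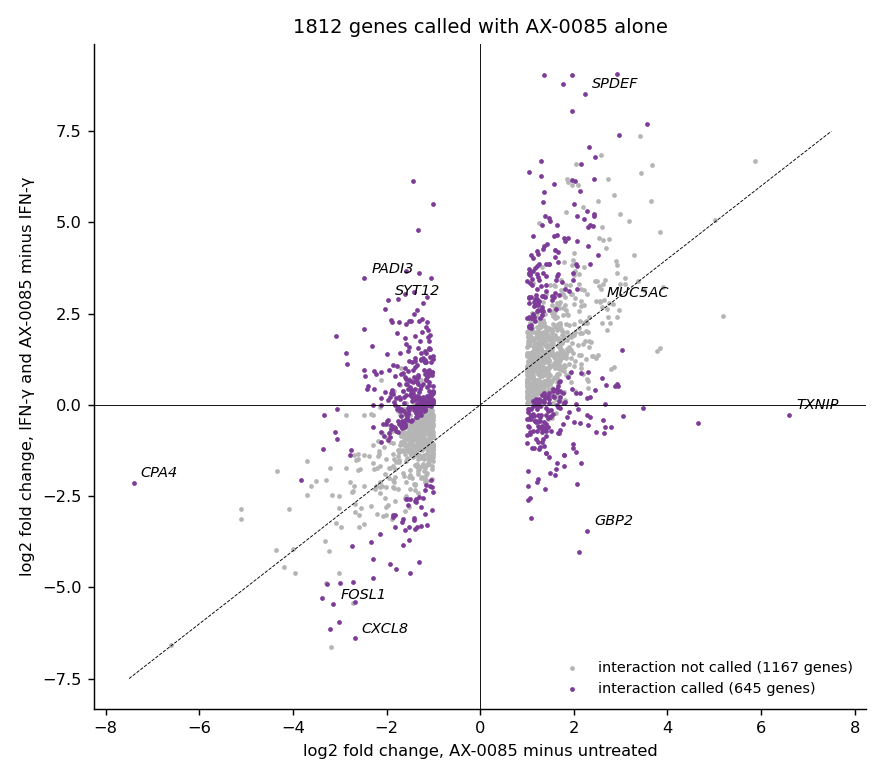
Log2 fold change of the 1812 genes called for AX-0085 alone (horizontal axis) against their change with AX-0085 on top of IFN-γ (vertical axis), with 645 genes called for the interaction in purple, the others in grey and a dashed line of equal change. Genes that fell alone crowd above the line, toward 0, and TXNIP lies at 6.60 alone and −0.27 with IFN-γ. The genes were chosen by their change on the horizontal axis, which by itself draws points toward 0 on the vertical axis.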

How the data were processed

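A549 RNA was read out in 8 sequencing libraries, 2 for each of 4 groups. Per the submitters' processing notes, reads were demultiplexed with bcl2fastq 2.20, trimmed with Trim Galore 0.6.7, mapped to hg38 with STAR 2.7.9a and assigned to genes with featureCounts. The authors deposited the counts without normalization. The annotation release, strand setting and handling of multi-mapping reads are not given in the sources used here, and overlaps are those of GENCODE 44.

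The filter was filterByExpr and the scaling TMM. The quasi-likelihood test of edgeR 4.0.16 in R 4.3.3 was fitted to the 4 groups jointly, using all 8 libraries; standard errors are the fold change over the root of the F statistic. The list members and rules were chosen with earlier results of these data known, so counts over lists are descriptions. The named genes were the 15 largest changes in each direction whose mean log2 CPM was 2 or more and whose groups did not overlap, up to 4 called genes per list and direction, a set of preset genes, and the 5 largest interactions in each direction; not all are named in the text, and some that meet the rule are not reported here. Replicate numbers did not pair the libraries (correlation of deviations −0.109 between untreated and AX-0085). Alternatives were DESeq2 1.42.0, other scalings, filters and models, a test against a 2-fold change, a replicate block and leaving out each library. The procedure was tested on simulated data with 200 changed genes.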

Additional observations from a re-analysis of the deposited data

Results flagged for a closer look

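By the interaction test of edgeR, the change with AX-0085 differed between cells without and with IFN-γ in 308 of the genes called higher and 337 of those called lower. Among 186 named and tested genes (1 of 187 is not reported here), 25 had an interaction over 3 in size on the log2 scale with an adjusted p under 0.05, and they are given here as values without explanation.

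In 12 of them the change was lower in the presence of IFN-γ. TXNIP rose by 6.60 alone and was at −0.27 with IFN-γ, where the IFN-γ libraries already had 463 and 694 counts (interaction −6.87). ARRDC4 likewise was at 171 and 271 counts in the IFN-γ libraries (interaction −3.28). Of the stress-response genes, SESN2 had an interaction of −3.52 and CHAC1 of −3.03. NIBAN1, a stress-responsive gene, rose from 74 and 47 counts to 214 and 264 alone, and fell from 2396 and 3563 to 949 and 673 after IFN-γ (−4.22). Among genes that IFN-γ induces, the interaction was −5.74 for GBP2, −3.62 for IFI16, −3.26 for APOL6 and −4.49 for CD274. CXCL8 fell in both settings and further with IFN-γ (−3.71). KLHDC7B (−6.14) had 1 and 1 counts in untreated cells, and RPL21P18 (−5.16), a ribosomal protein pseudogene that may take reads from its parent gene, had 0 and 1.

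In the other 13 genes the change was higher in the presence of IFN-γ. SPDEF was at 1 and 1 counts in the IFN-γ libraries and reached 621 and 385 with both agents (6.30). ERBB3 (3.02), FGFR3 (4.23), FADS2 (3.17) and CA9 (4.67) were low with IFN-γ and higher with both. PADI3 fell alone from 333 and 220 counts to 41 and 52, whereas IFN-γ libraries held 2 and 2 and those of both agents 38 and 19 (5.94). C11orf86 (3.92) and SYT12 (4.84) fell alone and rose with AX-0085 on top of IFN-γ. ITGAL (7.68), FOXN4 (7.56), PACSIN1 (7.09) and SERPINA6 (7.04) had no counts in either IFN-γ library, and ENSG00000276351 (6.53) had 0 and 1, so these sizes depend on the prior count and are no bounds.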

How the results depend on the processing

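The counts of 966 genes called higher and 846 called lower stayed within 1.5 times under DESeq2 (742 and 709), both other scalings, both filters and the fit of only the groups compared, and scaling moved the median of all genes by less than 0.1. They moved with the call rule. The adjusted p alone gave 4018 higher, 4010 lower and 4701 with an interaction, and a test against a 2-fold change gave 265, 340 and 169 (the construction of these rules sets the direction). Without single libraries the counts were 844 to 1022 higher, 792 to 887 lower and 556 to 646 with an interaction. With the replicate number as a block, 946 were called higher, 834 lower and 626 with an interaction; with the untreated numbers swapped, chosen after seeing the data because the correlation was −0.109, they were 969, 844 and 650. No named gene that was called in the main or the alternative fit changed sign. Named genes called in neither could change sign. Over the settings CD274 lay between −0.28 and 1.335, CDKN1A between −0.043 and 0.12 and HSPA5 between −0.117 and 0.020. The test against a 2-fold change ended the call of 58 of 187 named genes, DESeq2 that of 12 and leaving out untreated replicate 2 that of 21. Calls near the threshold or on few counts were lost most often, in 5 or more of the other settings for VIM, AKR1C1, ABCC3, TAGLN, GABARAPL1, TNFSF4, KRT16, KLHDC7B and ENSG00000276351, and the cause was not tested. Genes of a few counts were also called at moderate changes, such as TNFSF4, from 3 and 3 counts to 10 and 10 (1.775). With 2 libraries per group, such calls rest on few reads.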

Other observations

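C11orf86 and SYT12 are neighbors on chromosome 11, 29768 bases apart, a pair noticed after their values were seen. With AX-0085 alone C11orf86 fell from 620 and 571 counts to 131 and 97 and SYT12 from 367 and 334 to 75 and 94. In IFN-γ-treated cells C11orf86 had 66 and 76 counts and SYT12 30 and 36. Both agents together gave 309 and 223 counts of C11orf86 and 313 and 272 of SYT12. In both genes the order of the group means in CPM was the same, with untreated cells highest and IFN-γ-treated cells lowest. For SYT12 the untreated libraries and those of both agents overlapped in CPM, and the order was not tested.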
